A study of Mus musculus with 9 samples.

Results

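The lysyl oxidase family consists of Lox, Loxl1, Loxl2, Loxl3 and Loxl4, and its 5 genes were found by symbol among the 22337 genes measured in mouse retina. The family was selected on the values of Loxl4, which were higher in rd10 than in WT and higher again after MSC-EVs. The levels of Loxl4 are therefore given as a description without a test, whereas the other 4 members entered by name and were tested.

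Lysyl oxidases are secreted, copper-dependent amine oxidases. They oxidise lysine side chains in collagen and elastin to reactive aldehydes, and these aldehydes condense into the covalent cross-links that give matrix its strength. Lox and Loxl1 form one subgroup, whereas Loxl2, Loxl3 and Loxl4 carry additional scavenger receptor cysteine-rich domains in front of the catalytic domain. In the eye Loxl1 in particular is known for the elastic fibres of Bruch's membrane and of the anterior segment.

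RNA-seq was carried out on whole retina at P28, with 3 libraries per group. WT retinas came from C57BL/6J mice that received no injection. NS-treated rd10 retinas came from rd10 mice, which are homozygous for a missense mutation of the rod phosphodiesterase gene Pde6b and lose their rods, injected with normal saline. MSC-EVs-treated rd10 retinas came from rd10 mice injected with extracellular vesicles of human umbilical cord mesenchymal stem cells. Both rd10 groups received 1 μL per eye at P14 and at P21. The paper states that rd10 littermates were given either MSC-EVs or NS, without saying which libraries came from the same litter. The design text places the injections in the vitreous, although the treatment protocol words the route differently. The WT mice were not injected and came from another supplier, so that the mutation, the injection and the source of the animals cannot be told apart in comparisons with WT. None of the sources used here says whether each library came from a separate animal, and p-values therefore measure the spread between these libraries, which may be technical.

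Estimated counts per library summed to between 19491721 and 62532357, and MSC-EVs replicate 3 was the deepest. Y-linked transcripts (Kdm5d, Uty, Ddx3y and Eif2s3y) had 4379 and 4421 counts in MSC-EVs replicates 1 and 2 and between 7 and 23 in the other 7 libraries. The MSC-EVs group was thus mixed in this respect and the other groups were not, and values without replicates 1 and 2 are given for the comparison with NS. The summed level of 6 rod markers, which included Nrl and Sag, was 26780 to 29470 CPM (counts scaled to the library's size) in WT, 6564 to 8700 in NS-treated rd10 and 6560 to 9451 in MSC-EVs-treated rd10. All 6 were lower in NS-treated rd10 than in WT by the test below, as were 30.1% of all genes. In bulk retina, fewer cells of a type and less RNA per cell cannot be told apart.

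The copper-binding motif in the catalytic domain of the family holds 4 histidines. The 27 coding bases of this motif are shown for 4 members because the family shares it. The histidine codons are in capitals and the first codon encodes tryptophan. The bases are given 5′ to 3′ on the gene's own strand.
Loxl1: tggCATagctgtCACcaaCATtacCAC
Loxl2: tggCACgactgcCACaggCACtacCAC
Loxl3: tggCATgagtgtCATgggCATtacCAC
Loxl4: tggCACcagtgcCACaggCACtacCAC
Each stretch was interrupted by an intron after base 17, so that its coordinates (GRCm38, GENCODE M21) include that intron. For Loxl1 they were chr9:58293720-58294375 on the minus strand, in exons 3 and 4. For Loxl2 they were chr14:69682322-69689037 on the plus strand, in exons 10 and 11. For Loxl3 they were chr6:83050001-83050125 on the plus strand, in exons 10 and 11. For Loxl4 they were chr19:42598807-42599893 on the minus strand, in exons 11 and 12.

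Loxl2 and Loxl4 differed at 2 of these 27 bases. Loxl3 differed from each of them at 6 bases, and Loxl1 differed from Loxl2, Loxl3 and Loxl4 at 8, 7 and 9 bases. The predicted proteins were aligned locally, and the aligned lengths differed, so identities within and between the subgroups cover unlike stretches. Lox and Loxl1, of 411 and 607 residues, were identical at 57.9% of 330 aligned residues. Loxl2, Loxl3 and Loxl4, of 776, 754 and 758 residues, were identical to one another at 56.7% to 58.1% of 707 to 723 residues. Between the subgroups, identity was 49.5% to 54.8% over about the length of the catalytic domain, 198 to 208 residues. Lox and Loxl1 each contained 12 cysteines, and Loxl2, Loxl3 and Loxl4 contained 36, 39 and 35.

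The genes lie on 5 chromosomes. In GRCm38 Lox spans 52516067 to 52529867 of chromosome 18 and Loxl1 spans 58287738 to 58313186 of chromosome 9, both on the minus strand. Loxl2 spans 69609068 to 69695834 of chromosome 14 and Loxl3 spans 83034173 to 83052562 of chromosome 6, both on the plus strand. Loxl4 spans 42593982 to 42612813 of chromosome 19 on the minus strand. Loxl3 overlaps Htra2, and Loxl2 and Lox overlap other annotated genes, on the opposite strand. Whether the counting used strand was not given in the sources used here, so reads of these overlaps could be split between the genes. Of the 50-base words of Loxl2, 45% also occurred in transcripts of other genes, 42.9% in those of the predicted gene Gm21451, whereas Lox, Loxl1, Loxl3 and Loxl4 shared none. The estimated counts of Loxl2 and Loxl3 had decimals, such as 274.52 and 63.31 in WT replicate 1. Those of Lox, Loxl1 and Loxl4 were whole numbers. The estimated counts of Loxl2 and Loxl3 are therefore less certain than those of the other members.

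Every member was expressed in WT retina, at low levels. FPKM is scaled for both sequencing depth and the length of the transcript and so allows levels to be compared between genes, and in this unit Loxl2 was the highest member in WT at 1.91 ± 0.206 (SD, n = 3). Loxl1 followed at 1.10 ± 0.0586 FPKM, Loxl4 at 0.773 ± 0.199 FPKM and Loxl3 at 0.663 ± 0.0322 FPKM. The ranges of Loxl4 and Loxl3 overlapped in WT, so that these neighbours did not differ beyond their spread. Lox, the founding member, was lowest at 0.0900 ± 0.0200 FPKM.

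The order of the levels was different in rd10. In NS-treated rd10 Loxl1 was highest at 4.82 ± 0.574 FPKM, followed by Loxl2 at 3.66 ± 0.247, Loxl4 at 2.76 ± 0.554, Loxl3 at 1.40 ± 0.0777 and Lox at 0.527 ± 0.278 FPKM (SD, n = 3), and no neighbours overlapped. In MSC-EVs-treated rd10 Loxl4 was highest at 6.34 ± 1.72 FPKM. Loxl2 at 3.65 ± 0.153 FPKM and Loxl1 at 3.49 ± 0.586 FPKM overlapped with each other, and Loxl3 at 1.04 ± 0.139 and Lox at 0.393 ± 0.114 FPKM came last.

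The summed level of the 5 members was 5.02, 4.18 and 4.41 FPKM in the 3 WT libraries and 12.4, 15.01 and 12.08 FPKM in the NS-treated rd10 libraries. In the MSC-EVs-treated rd10 libraries it was 14.59, 14.04 and 16.11 FPKM. The rd10 libraries were all above the WT libraries, and the 2 rd10 groups overlapped. Since Loxl4, which chose the family, is part of the sum, no test was made of it.

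The composition of the family is given as a description, since the family was selected on the rise of Loxl4 and its larger share after MSC-EVs follows from that choice. Loxl4 made up 16.9% ± 2.65 of the family's FPKM in WT, 20.9% ± 1.98 in NS-treated rd10 and 42.1% ± 8.44 in MSC-EVs-treated rd10 (SD, n = 3). Loxl1 made up 24.4% ± 1.03, 36.6% ± 0.124 and 23.6% ± 5.51. Loxl2 made up 42.0% ± 0.578 in WT and 27.9% ± 1.94 and 24.6% ± 1.63 in the rd10 groups. These shares sum to the whole in each library, so a higher share of Loxl4 lowers the others by construction.

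**Figure D1:**
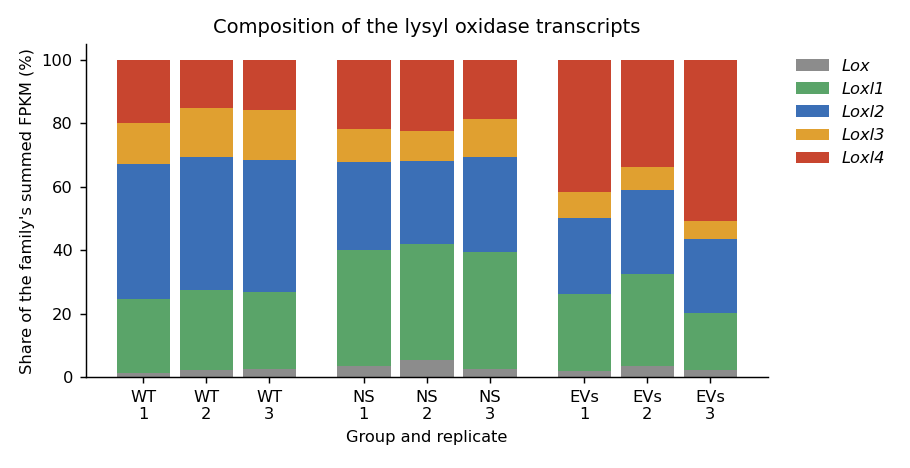
Share of each member in the summed FPKM of the family (%, vertical axis) in each of the 9 libraries (horizontal axis; NS, NS-treated rd10; EVs, MSC-EVs-treated rd10). Loxl4 took 15.1% to 19.9% in WT, 18.6% to 22.3% in NS-treated rd10 and 33.9% to 50.8% in MSC-EVs-treated rd10.

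To examine how the family differed between rd10 and normal retina, NS-treated rd10 was compared with WT. All 4 tested members rose in rd10. Lox and Loxl1 rose by about the same amount within their intervals (log2 fold change 1.39 to 3.22 and 1.66 to 2.23), and their order turned without NS replicate 2 (1.82 and 1.85), whereas Loxl2 and Loxl3 rose less than 2-fold. Loxl4, on which the family was selected, was also higher. The test was edgeR's quasi-likelihood test on 14644 genes with Benjamini-Hochberg adjustment, and a gene was called at an adjusted p under 0.05. Of all tested genes, 31.2% were called higher in NS-treated rd10 and 30.1% lower.

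Lox, which encodes the founding enzyme acting on both collagen and elastin, had 0.359, 0.448 and 0.550 CPM in the 3 WT libraries and 1.86, 3.63 and 1.33 CPM in the NS-treated rd10 libraries. The groups did not overlap, although replicate 2 of NS-treated rd10 stood above its group. The log2 fold change was 2.31 (SE 0.420, adjusted p = 0.000489), a 4.94-fold rise. This rested on few reads, 8 to 11 counts per WT library and 29 to 74 per NS-treated rd10 library.

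Loxl1, which encodes the enzyme needed for elastic fibre maintenance, had 4.17, 3.76 and 3.85 CPM in WT and 14.4, 17.2 and 13.9 CPM in NS-treated rd10. Each rd10 library was more than 3 times as high as each WT library. This gave a log2 fold change of 1.95 (SE 0.130, adjusted p = 1.3e-07), a 3.85-fold rise.

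Loxl2, whose protein cross-links the type IV collagen of basement membranes, had 12.3, 9.98 and 10.6 CPM in WT and 17.6, 19.9 and 18.3 CPM in NS-treated rd10. The groups did not overlap. Loxl2 thus rose with a log2 fold change of 0.76 (SE 0.105, adjusted p = 5.89e-05), a 1.69-fold rise.

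Loxl3, whose protein is needed for palate and cartilage development, had 2.83, 2.77 and 3.10 CPM in WT and 5.17, 5.49 and 5.72 CPM in NS-treated rd10. The 3 libraries within each group lay close together. Loxl3 had a log2 fold change of 0.91 (SE 0.159, adjusted p = 0.000357), a 1.88-fold rise.

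Loxl4 had 3.95, 2.51 and 2.80 CPM in WT and 9.50, 10.7 and 8.01 CPM in NS-treated rd10, without overlap. Its log2 fold change was 1.60, a 3.03-fold difference. With a log2 fold change of at least 1 as a further criterion, 2 of the 4 tested members, Lox and Loxl1, remained called, beside 9.16% of all genes. All 4 had groups that did not overlap, with rd10 higher, as had 33.7% of all genes.

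**Figure D2:**
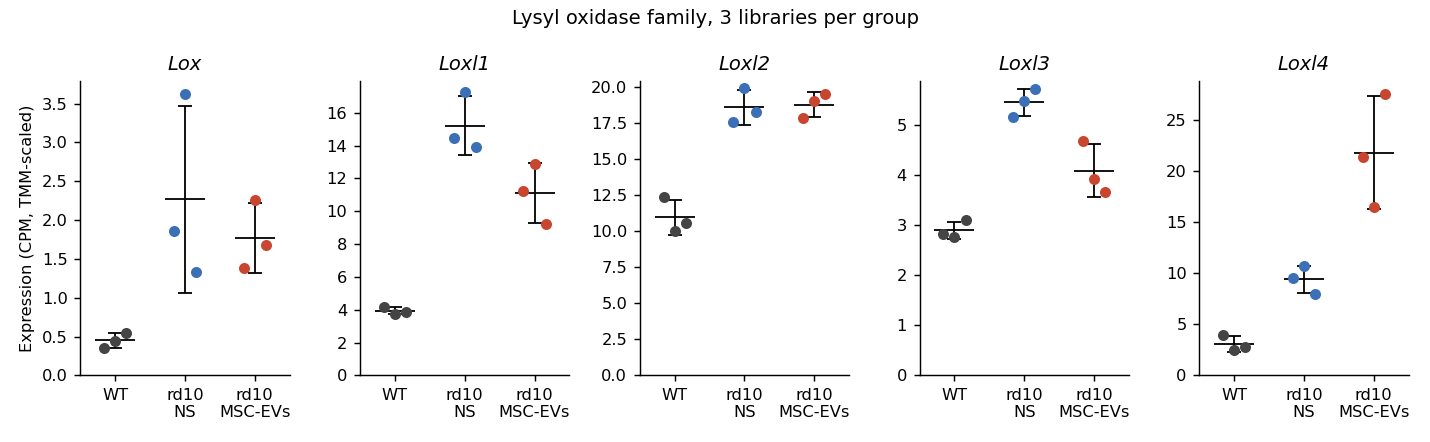
Expression of the 5 members (CPM scaled by TMM factors, vertical axis, from 0) by group (WT, then rd10 with NS, then rd10 with MSC-EVs). Points are the 3 libraries per group, in the order of their replicate numbers, and bars are the mean and SD. Loxl4 lay between 16.5 and 27.5 CPM in MSC-EVs-treated rd10, above all other libraries, while Loxl1 and Loxl3 were lower there than in NS-treated rd10.

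To examine whether the family differed after MSC-EVs, MSC-EVs-treated rd10 was compared with NS-treated rd10. Loxl4 was higher in every MSC-EVs library. None of the 4 tested members was called by the quasi-likelihood test, among 14765 genes of which 1.16% were called in either direction. Loxl1 and Loxl3 had an unadjusted p under 0.05, both with lower values after MSC-EVs. By adjusted p they ranked only 1264 and 2386 among the genes tested. The share of all genes under the unadjusted threshold was not counted. DESeq2's Wald test and limma on FPKM also called 0 of the 4.

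Loxl4 had 21.4, 16.5 and 27.5 CPM in the 3 MSC-EVs libraries, against 9.50, 10.7 and 8.01 CPM in the NS-treated rd10 libraries. Behind these stood 511, 386 and 1772 counts after MSC-EVs and 281, 218 and 175 counts after NS. The highest level was in replicate 3, the deepest library and the one without Y-linked counts at this level. The difference amounted to a log2 fold change of 1.23, or 2.35-fold. It was 1.01 without MSC-EVs replicate 3 and 1.56 with that replicate as the only MSC-EVs library.

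Loxl1 had 11.2, 12.9 and 9.22 CPM after MSC-EVs, below all 3 NS-treated rd10 libraries and above all WT libraries. Its log2 fold change was -0.46 (SE 0.146, adjusted p = 0.132), with a 95% confidence interval from -0.78 to -0.13. Loxl3 had 4.68, 3.93 and 3.67 CPM after MSC-EVs, likewise between the other groups. Its log2 fold change was -0.42 (SE 0.167, adjusted p = 0.205), with an interval from -0.79 to -0.04. The 2 rd10 groups did not overlap in Loxl1 or Loxl3, with lower values after MSC-EVs, as was so for 13.5% of all genes, and 26.3% did not overlap in either direction.

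With replicate 3 as the only MSC-EVs library, the log2 fold change was -0.71 for Loxl1 (adjusted p = 0.0791) and -0.56 for Loxl3 (adjusted p = 0.238) by the same test. Their adjusted p lay between 0.0522 and 0.35 and between 0.125 and 0.448 over all alternatives.

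Loxl2 had 17.8, 19.04 and 19.5 CPM after MSC-EVs and overlapped with NS-treated rd10. Its log2 fold change was 0.02 (SE 0.0951, adjusted p = 0.92), and the 95% interval from -0.19 to 0.24 was the narrowest of the 4. Lox had 1.38, 2.26 and 1.68 CPM after MSC-EVs and also overlapped. Its log2 fold change was -0.34 (SE 0.373, adjusted p = 0.652), with an interval from -1.18 to 0.49, and it was 0.15 without NS replicate 2. This interval covers the differences of both Loxl1 and Loxl3 as well as 0.

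**Figure D3:**
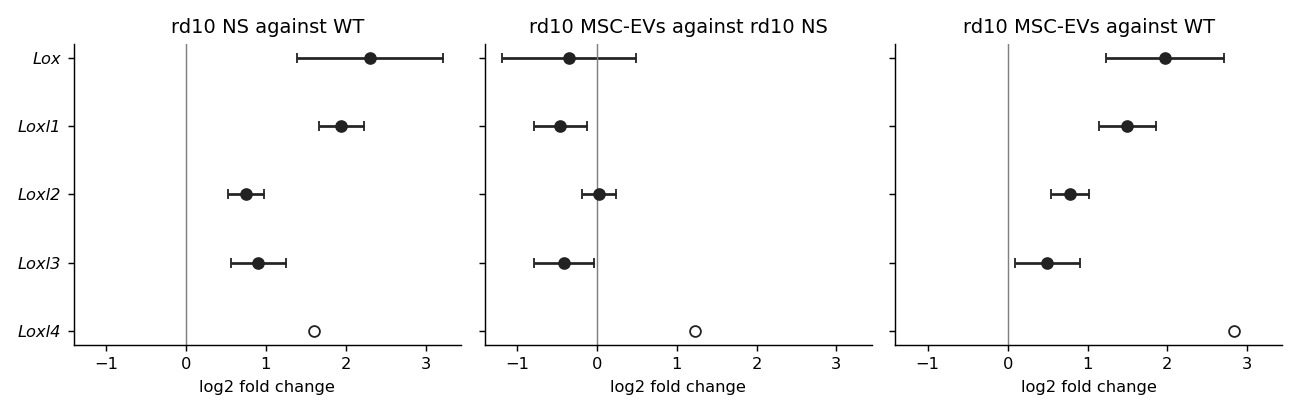
Log2 fold change (horizontal axis) of each member in the 3 comparisons. Filled points are tested members with their 95% confidence interval, and open points are Loxl4, given without an interval because the family was chosen by it. The intervals of Lox, Loxl1, Loxl2 and Loxl3 lay above 0 in both comparisons with WT.

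MSC-EVs-treated rd10 was also compared with WT. This comparison shares its libraries with the other comparisons and adds no independent replicates. All 4 tested members were higher than in WT, beside 28.3% of 14623 genes called higher and 27.2% called lower. The log2 fold change was 1.97 for Lox (SE 0.332, adjusted p = 0.000734), 1.50 for Loxl1 (SE 0.159, adjusted p = 4.22e-05) and 0.78 for Loxl2 (SE 0.106, adjusted p = 0.000191). For Loxl3 it was 0.50 (SE 0.184, adjusted p = 0.0418), and this call was lost in 9 of 16 alternatives, such as DESeq2's Wald test (adjusted p = 0.0878), with adjusted p between 0.0199 and 0.267 over the alternatives. Loxl4 stood at a log2 fold change of 2.83, a 7.12-fold difference. With a log2 fold change of at least 1 as well, Lox and Loxl1 remained called, beside 9% of all genes.

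Across the 9 libraries, the members' levels can be set beside each other. On the log2 CPM scale, Pearson's r was highest between Loxl1 and Loxl2 at 0.94 and lowest between Loxl3 and Loxl4 at 0.56. These values describe 9 libraries that fall into 3 groups and share depth and tissue composition. By the same measure over 14908 genes, the gene most like Loxl1 was Ltbp3, a latent TGF-β binding protein, with r = 0.996, ahead of Cpq, Arf4, Anxa6 and Anxa5. The genes most like Loxl4 were Lrrc2 (r = 0.988), Kcng4, E2f6, Ipo5 and Rnf144b. For Lox they were Plekhb1 (r = 0.987), Sdc1, Myl12a, Bgn and Ptprn, among them the matrix proteoglycan biglycan (Bgn) and the cell surface proteoglycan syndecan-1 (Sdc1). For Loxl2 they were Spint1 (r = 0.987), Tent5b, Card10, Cr1l and Cfi, and for Loxl3 Foxn3 (r = 0.991), Nova1, Ctso, Dio2 and Capzb.

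Substrates and partners of the enzymes were followed in 49 genes, which formed 8 lists by role. The lists were chosen with earlier results of these data known, so their counts beside all genes are a description. Of 45 tested in NS-treated rd10 against WT, 31 rose and 3 fell, beside 31.2% of all genes called higher and 30.1% lower. Their median log2 fold change was 1.04 beside 0.01 over all genes. Of 46 tested in MSC-EVs-treated against NS-treated rd10, 1 rose and 0 fell, beside 1.16% of all genes called in either direction. Of these 46, 11 had an unadjusted p under 0.05, while DESeq2's Wald test called 7. The share of all genes under that unadjusted threshold was not counted. Loxl3, at an unadjusted p of 0.0332 by the quasi-likelihood test, ranked only 2386 among 14765 genes. The median of the partner genes was -0.13 beside 0.00 over all genes. Of 44 tested in MSC-EVs-treated rd10 against WT, 25 were higher and 2 were lower, beside 28.3% and 27.2% of all genes. Their median was 0.97 beside 0.00. The counts by list below stand beside the same shares of all genes.

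Among fibrillar and basement membrane collagens, the substrates of the family, 6 of 7 rose in NS-treated rd10. The largest rise passing the test was that of Col1a2, a chain of type I collagen, from 3.81, 5.55 and 5.55 CPM in WT to 15.1, 18.5 and 13.1 CPM (log2 fold change 1.64, SE 0.168, adjusted p = 5.69e-06). Col5a1, Col5a2 and Col3a1 rose by 1.50, 1.49 and 1.44 on the log2 scale (adjusted p = 1.48e-05, 0.000103 and 0.000294). Col1a1 had a log2 fold change of 1.82 but varied widely, from 1.05 to 6.22 CPM between the NS-treated rd10 libraries, and did not pass. After MSC-EVs, none of the 7 was called. Col4a1, a chain of basement membrane collagen, was 92.7, 106.6 and 92.3 CPM after NS and 115.9, 125.4 and 119.6 CPM after MSC-EVs (log2 fold change 0.31, SE 0.0749, adjusted p = 0.0725). Its groups did not overlap, as was so for 26.3% of all genes in either direction.

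Of 10 elastic fibre genes, 8 rose in NS-treated rd10 and 1 fell. Mfap4, a microfibril-associated protein, was 0.763, 0.403 and 0.450 CPM in WT and 10.1, 12.2 and 4.16 CPM in NS-treated rd10 (log2 fold change 4.01, SE 0.493, adjusted p = 0.000203). Fbln5 and Efemp2, fibulins that bring lysyl oxidases to elastin, rose by 2.33 and 1.92 on the log2 scale (adjusted p = 1.15e-06 and 1.76e-06). Mfap2 rose by 1.79 (adjusted p = 1.3e-06), while Ltbp4 fell by 0.35 (adjusted p = 0.00614). In FPKM the ranges of Ltbp4 overlapped, at 2.91 to 3.11 in WT and 2.46 to 3.46 in NS-treated rd10.

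After MSC-EVs, 0 of these 10 were called by the quasi-likelihood test, although all 10 had a log2 fold change below 0 and 3 (Eln, Fbn1 and Fbln5) had an unadjusted p under 0.05. Their median was -0.47, and the share of all genes under that unadjusted threshold was not counted. Such values were not rare, since Loxl3, at an unadjusted p of 0.0332, ranked only 2386 among 14765 genes. Eln, which encodes elastin, was 17.9, 20.1 and 16.8 CPM after NS and 10.8, 15.0 and 11.7 CPM after MSC-EVs. The groups did not overlap, as was so for 26.3% of all genes in either direction. The log2 fold change of Eln was -0.54 (SE 0.138, adjusted p = 0.0831). Mfap4 had 1.00, 5.42 and 0.886 CPM after MSC-EVs and overlapped with NS-treated rd10 (log2 fold change -1.92, SE 0.852, adjusted p = 0.291).

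The procollagen processing and matrix scaffold list had 7 tested genes, of which 6 rose in NS-treated rd10. Thbs1, the matricellular protein thrombospondin-1, rose most, from 7.45, 7.65 and 8.16 CPM in WT to 169, 45.6 and 82.1 CPM (log2 fold change 3.69, SE 0.657, adjusted p = 0.0088). Pcolce, the enhancer of procollagen C-proteinase, rose by 2.75 (adjusted p = 7.11e-05). Bmp1, the proteinase that cleaves procollagen and the Lox propeptide, rose by 2.06 (adjusted p = 5.4e-07), and Postn, a scaffold that binds Bmp1, by 1.12 (adjusted p = 0.000558). After MSC-EVs, 0 of the 7 were called.

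Lysyl hydroxylases act on the same lysines before lysyl oxidases do. Plod2 and Plod1 rose in NS-treated rd10 by 0.89 and 0.71 on the log2 scale (adjusted p = 8.98e-06 and 3.18e-05), and the third gene, Plod3, did not pass. Of 4 copper delivery genes, the chaperone gene Atox1 rose by 0.41 (adjusted p = 0.00389) and the copper pump gene Atp7b fell by 0.86 (adjusted p = 0.000176). Atp7a, the pump that loads secreted cuproenzymes with copper, was 19.3, 11.5 and 12.4 CPM after NS and 28.1, 24.3 and 22.4 CPM after MSC-EVs. These groups did not overlap, as was so for 26.3% of all genes in either direction (log2 fold change 0.79, SE 0.196, adjusted p = 0.0908). Atox1 went the other way after MSC-EVs, also without overlap (log2 fold change -0.30, SE 0.1045, adjusted p = 0.161). Of the 4 copper delivery genes, 2 lay above 0 and 2 below 0 between the rd10 groups, and 0 were called.

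Other oxidases and cross-linking enzymes included the transglutaminases, which join proteins through glutamine. Tgm2 was 8.43, 7.88 and 9.31 CPM in WT, 35.4, 36.9 and 37.8 CPM in NS-treated rd10 and 68.0, 62.4 and 46.4 CPM in MSC-EVs-treated rd10. It rose in NS-treated rd10 (log2 fold change 2.10, SE 0.0878, adjusted p = 3.32e-09) and again with MSC-EVs (0.68, SE 0.129, adjusted p = 0.0489), the only one of the 49 genes called between the rd10 groups. That count was 0 with DESeq2's size factors, with limma on FPKM, with a Y-linked covariate and on leaving out MSC-EVs replicate 1, NS replicate 2 or NS replicate 3. It was 6 without MSC-EVs replicate 2 and 2 without MSC-EVs replicate 3. Tgm1 rose by 4.30 in NS-treated rd10 (adjusted p = 7.96e-07) and had a log2 fold change of 1.37 with MSC-EVs (SE 0.402, adjusted p = 0.13). Maoa rose by 0.50 in NS-treated rd10 (adjusted p = 0.00647).

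Among genes that induce the family, Tgfb1, Smad3 and Tgfb2 of the TGF-β pathway rose in NS-treated rd10 by 2.37, 0.94 and 0.83 on the log2 scale (adjusted p = 9.92e-07, 7.93e-07 and 1.32e-07). Ccn2 of the same list overlapped between these groups and was not called (log2 fold change 0.11, adjusted p = 0.482). Hif1a, of the hypoxia response, fell by 0.21 (adjusted p = 0.0107), though its transcript level is not its main point of control. In FPKM the ranges of Hif1a overlapped, at 160.61 to 177.91 in WT and 160.62 to 170.58 in NS-treated rd10. Snai1, a transcription factor that Loxl2 and Loxl3 proteins bind, rose by 2.09 (adjusted p = 0.0014) from at most 0.200 CPM in WT. Hif1a was 743, 749.5 and 702 CPM after NS and 913, 859.9 and 883 CPM after MSC-EVs (log2 fold change 0.28, SE 0.0600, adjusted p = 0.0586). Its groups did not overlap, as was so for 26.3% of all genes in either direction. After MSC-EVs, 0 of the 6 inducing signals and 0 of 3 tested Snail-type factors were called.

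**Figure D4:**
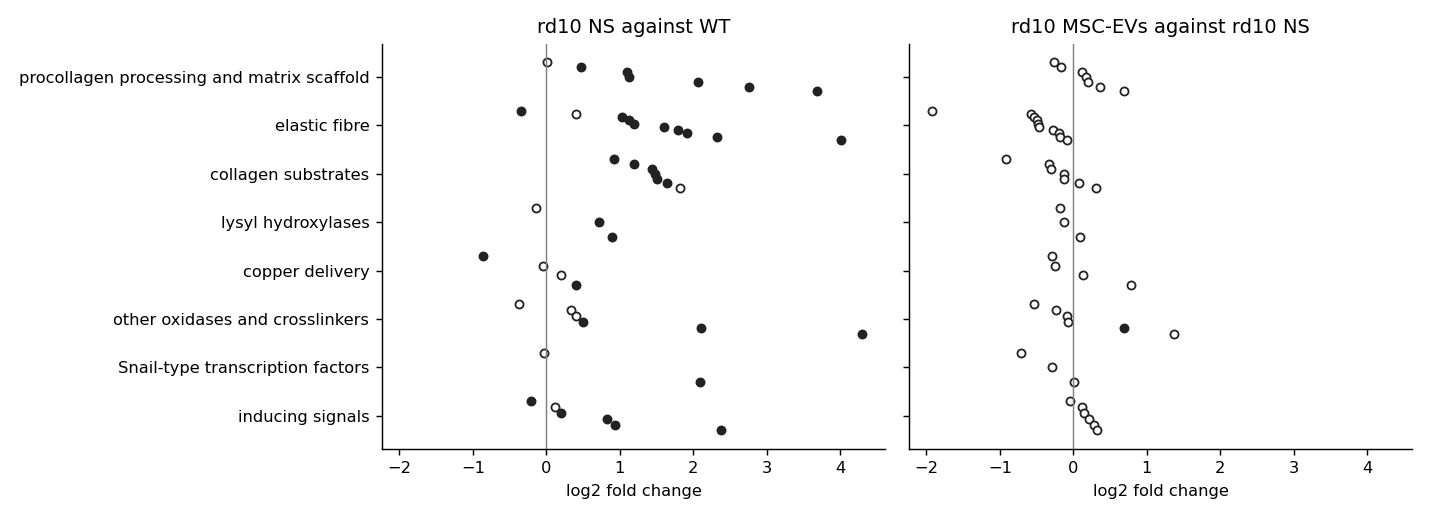
Log2 fold change (horizontal axis) of substrate and partner genes in their 8 lists (vertical axis) in NS-treated rd10 against WT (left) and MSC-EVs-treated against NS-treated rd10 (right). Filled points had an adjusted p under 0.05. In the right panel all 10 elastic fibre genes lay below 0 with none filled, and Tgm2 was the single filled point.

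Markers of glia and microglia also rose in NS-treated rd10, where 31.2% of all genes were called higher against WT. The summed CPM of 6 reactive gliosis markers was 247.6 to 262.1 in WT, 1267 to 1551 in NS-treated rd10 and 1728 to 2059 in MSC-EVs-treated rd10. All 6 rose in NS-treated rd10, and 1, Fgf2, rose with MSC-EVs (log2 fold change 0.98, SE 0.116, adjusted p = 0.0209). Between the rd10 groups, 1.16% of all genes were called in either direction. The 8 microglia and macrophage markers all rose in NS-treated rd10, from 34.2 to 36.7 CPM in WT to 228 to 286.9 CPM, and stood at 197.9 to 351.1 CPM after MSC-EVs with 0 called. The gliosis sums of the rd10 groups did not overlap and the microglia sums did. Within the gliosis list, Vim and Lif had log2 fold changes of -0.01 and -0.57 with MSC-EVs and were not called.

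Markers of matrix-producing and vessel cells moved unevenly, and their counts stand beside the same 31.2% of all genes called higher in NS-treated rd10. The 5 fibroblast markers summed to 24.6 to 27.97 CPM in WT, 61.4 to 64.4 CPM in NS-treated rd10 and 60.6 to 65.9 CPM in MSC-EVs-treated rd10. Most of this sum was Pdgfra, at 17.5 to 21.6, 39.1 to 46.2 and 36.8 to 52.45 CPM in the same order. Of 4 tested, 2 were called higher in NS-treated rd10, Pdgfra and Col1a2, the latter also in the collagen list. Col1a1 and Dcn were not called (adjusted p = 0.112 and 0.237). The 6 pericyte and smooth muscle markers summed to 118 to 132.4, 183.7 to 211.9 and 158.5 to 176.1 CPM in the same order of groups. Of these 6, Pdgfrb, Rgs5 and Tagln, 3 in all, were called higher in the NS-treated libraries against WT, while Myh11 had a log2 fold change of -0.40 (adjusted p = 0.173) and was called lower in MSC-EVs-treated rd10 than in WT (-0.91, adjusted p = 0.0204). The 5 Müller glia markers summed to 3363 to 3612, 3374 to 4286 and 2789 to 3035 CPM, with 4 of 5 called higher in NS-treated rd10, among them Sox9 (log2 fold change 1.90), but not the abundant Glul (-0.03, adjusted p = 0.853). Pericyte and Müller glia sums were both lower in every MSC-EVs library than in every NS library, and none of these markers was called between the rd10 groups. Most of the pericyte sum was Rgs5, at 135 to 165 CPM after NS and 117.3 to 137.8 CPM after MSC-EVs. Most of the Müller glia sum was Glul, at 2099 to 3082 and 1716 to 2116 CPM. Each of these genes overlapped by itself, and of the other markers in these lists only Cspg4, Rlbp1 and Aqp4 did not. Over all genes, 13.5% were lower without overlap after MSC-EVs and 26.3% did not overlap in either direction. Ciliary body and iris markers summed to 15.3 to 22.5 CPM in WT, 43.6 to 113.7 CPM in NS-treated rd10 and 18.8 to 51.5 CPM after MSC-EVs. No marker in these lists was at 0 in all libraries, and the part of cell composition in the family's values was not tested.

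The promoter of Loxl4 is shown because Loxl4 is the member whose level was highest after MSC-EVs and because NF-κB signalling was a subject of the study. The bases lie just before the annotated start of the gene, at chr19:42612814-42613056 on the minus strand of GRCm38.p6 (RefSeq), 5′ to 3′ towards the gene, with the match to the κB decamer in capitals.
Loxl4 promoter: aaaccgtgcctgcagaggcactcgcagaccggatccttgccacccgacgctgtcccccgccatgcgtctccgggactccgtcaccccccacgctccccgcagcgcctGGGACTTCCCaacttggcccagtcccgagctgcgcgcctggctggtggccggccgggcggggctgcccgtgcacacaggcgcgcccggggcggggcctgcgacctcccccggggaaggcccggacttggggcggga
In the 250 bases before the RefSeq start, searched on both strands, the decamer occurred 1 time, starting 143 bases upstream, and it occurred in 7.25% of 32851 mouse promoters of the same length. The AP-1 motif TGANTCA, held by 6.75% of promoters, and the hypoxia response core ACGTG, held by 16.6%, were not found among these letters. A match is a description of letters, and no binding was measured here.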

How the data were processed

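Polyadenylated RNA was sequenced on an Illumina platform. The deposited table holds, for each gene and each of 9 libraries, an expected count that the authors estimated from the reads and did not normalize, and an FPKM value that they scaled for transcript length and depth. The submitters' processing notes name fastp, Bowtie2, HISAT2, StringTie 1.3.1 and RSEM, and the genome build and annotation were not given in the sources used here. Columns were assigned to libraries by name.

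Expected counts were rounded, filtered with filterByExpr, scaled by TMM and compared between groups of 3 with edgeR 4.0.16 (R 4.3.3; robust glmQLFit, glmQLFTest, 6 libraries per fit, Benjamini-Hochberg over all tested genes). The standard error is the absolute log2 fold change divided by the square root of F. CPM values use TMM factors. Alternatives were DESeq2 1.42.0, limma 3.58.1 on log2(FPKM + 1) and log2(FPKM + 0.1), other filters, 1 fit of all libraries, a replicate block, a Y-linked covariate and each library left out. The fits were tested on simulated data.

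Genes named were the 5 members, up to 4 called genes per partner list by size of change in NS-treated rd10 against WT, any partner called between the rd10 groups, and the 5 genes most correlated with each member (log2 CPM, prior count 2). Eln, Fbn1, Atp7a, Ccn2, Col1a1, Col4a1, Ltbp4, Plod3 and the individual cell type markers were chosen after their values were seen. The members and lists were chosen with earlier results of these data known. Transcripts and coordinates came from GENCODE M21 and promoters from a table drawn from RefSeq, in which 1 of the 5 members was matched. Proteins were translated from the longest annotated coding transcripts and aligned locally with Biopython 1.88. One cell type marker is not reported here and was left out of its list.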

Additional observations from a re-analysis of the deposited data

How the results depend on the processing

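In NS-treated rd10 against WT, all 4 tested members kept their direction and their call in every alternative that could test them; Lox could not be tested with at least 10 counts in every library. With a log2 fold change of at least 1 as well, 2 of 4 were called in each comparison with WT. Between the rd10 groups, 0 of 4 were called in any alternative, including the fit, chosen after seeing the data, with MSC-EVs replicate 3 as the only MSC-EVs library, where the lone library is assumed to vary like the others. The number of partner genes called there was 1, against 0 with DESeq2's size factors, limma on log2(FPKM + 1), limma on log2(FPKM + 0.1) or the Y-linked covariate, 7 with DESeq2's Wald test, 6 with all 9 libraries in 1 fit, and 0 to 6 with single libraries left out; the cause was not tested. The log2 fold change of Lox between the rd10 groups was -0.61 to 0.15 with single libraries left out. That of Loxl2 was -0.0157 to 0.0759 in the same way, and -0.0002 and 0.00 with limma on log2(FPKM + 1) and log2(FPKM + 0.1), around a main value of 0.02. Loxl4 against WT was 1.08 in NS-treated and 2.03 in MSC-EVs-treated rd10 on the log2(FPKM + 1) scale, which understates low genes, and 1.56 between the rd10 groups with the Y-linked covariate.

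With a replicate block, 4 partner genes and 0 members were called between the rd10 groups, 35 and 4 in NS-treated rd10 against WT, and 27 and 3 in MSC-EVs-treated rd10 against WT, where Loxl3 had an adjusted p of 0.0612. The deviations of same-numbered libraries correlated at 0.0932, 0.174 and 0.272 between the rd10 groups, and all 6 libraries correlated best with their own number. The paper states that rd10 littermates received MSC-EVs or NS, but not that libraries of the same number were littermates. The main fits took the rd10 groups as unpaired. Against WT the correlations were -0.0586 to 0.0765.

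Lox had the fewest counts, 8 to 11 per WT library, and the largest spread between replicates. Groups of 3 were not screened for outlying libraries.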

Other observations

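The members differed in how much they varied between replicates. In the fit of all 9 libraries, the biological coefficient of variation was 29% for Lox, 17.3% for Loxl4, 14% for Loxl3, 12.7% for Loxl1 and 8.9% for Loxl2, beside 10.6% over all genes. Lox, the member with the fewest counts, was thus the most variable, and Loxl2 the least.

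Markers of the lens and of the retinal pigment epithelium, tissues that adjoin the retina and can be carried over in dissection, varied within groups. The 5 lens markers summed to 36.2 to 157.5 CPM in WT, 39.9 to 55.6 CPM in NS-treated rd10 and 12.04 to 143 CPM in MSC-EVs-treated rd10. The 5 pigment epithelium markers summed to 34.8 to 63.1, 42.0 to 167.9 and 48.5 to 161.3 CPM. The 4 cornea and conjunctiva markers stayed between 0.400 and 1.57 CPM in all 9 libraries. The 5 endothelial markers summed to 207 to 213.6, 337.8 to 370.1 and 325.7 to 403.5 CPM, and the 5 cone markers to 1235 to 1435, 906.6 to 997.8 and 722.8 to 997.6 CPM.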
